A study of Homo sapiens with 4 samples.

Results

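Antisense RNAs are transcripts made from the strand opposite a gene, and those named here carry the symbol of that partner gene followed by -AS1, -AS2 or -AS3. Members were the rows of the deposited count table that have such a name, are not annotated as protein-coding and hold at least 50 counts over the 4 libraries. Names that start with LINC, SNHG or MIR and the gene FLG-AS1 were left out. Of 58735 annotated genes 1206 had such a name and biotype, and 285 of these reached 50 counts. Members were thus selected on their summed count over all libraries, so their levels are a description. The rule holds no value of the treatment contrast, but it was set with earlier results of these data known. SMC5-AS1, AGAP2-AS1 and USP3-AS1 lay just inside the limit with sums of 50, and CACTIN-AS1, CSNK1G2-AS1 and EXTL3-AS1 just outside it with sums of 49.

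The RNA came from SW1990, an established human pancreatic cancer cell line grown in DMEM. One group of 2 libraries received vehicle, and the other group of 2 received 10 µM Gomisin G, a plant lignan, both for 24 h. The labels give no separate culture or animal for the replicates, so every p-value rests on how far these libraries differ, which may be technical. The series concerns the Hippo-YAP pathway, and the comparison asks which transcripts differ between the treatments.

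Antisense transcripts arise in several ways. Some start at the promoter of a coding gene and run away from it, others start inside the gene or beyond its end and run back across its exons or introns. Many stay in the nucleus and are degraded soon after synthesis by the nuclear RNA exosome with its adaptor complexes. A few are stable and abundant, and some are known to raise or lower the output of their partner gene.

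The libraries held 14580848 to 15245770 counts, of which the members took 0.242 to 0.281%. In these libraries 3 counts, the limit that a count of 0 allows, equal 0.189 to 0.207 CPM (counts divided by library size, with TMM factors), and this limit covers counting error only. All 8 markers of ductal epithelium were detected and 0 of them was called, with KRT8 at 3663 to 6572 CPM, SOX9 at 627.8 to 809.9 CPM and KRT7 at 0.875 to 2.07 CPM. Their summed level, most of it KRT8 and KRT18, was 10141 to 11925 CPM in vehicle and 7820 to 9969 CPM with Gomisin G. The markers did not move together. KRT8, KRT18 and CDH1 were lower in both treated libraries than in both vehicle libraries, and SOX9 and KRT7 overlapped. KRT19, EPCAM and MUC1 were higher, with KRT19 at 595.0 and 486.0 CPM in vehicle and 1012.8 and 723.4 CPM with Gomisin G. Markers of other cells were scarce. The 7 fibroblast markers summed to 4.69 to 4.91 CPM in vehicle and 8.57 to 11.99 CPM with Gomisin G, almost all of it COL1A1 and PDGFRB, with COL1A2 and LUM at 0. CD14, a monocyte gene, had 4.67 to 6.12 CPM, whereas PTPRC, CD3E and HBB of blood cells, KDR of endothelium, and CELA3A and GCG of the pancreas were at 0.

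How overlapping genes were counted decides what these values mean, and the table itself showed it. In GENCODE release 29 on GRCh38, whose coordinates and exon lengths matched all 58735 rows, 710 genes have every exon base inside exons of genes on the opposite strand and share none with genes on their own strand. Of these 710 genes 0 had a count in any library, although the opposite gene of 357 of them had 1000 or more counts. Among genes with no such cover 45.5% had a count, and among genes covered over 90% but not completely 21.8% had one. For protein-coding genes the shares were 77.0% with no cover and 0 of 17 with complete cover. Counting that ignores strand and leaves out reads shared by more than one gene gives exactly 0 for such genes. Counts of an antisense RNA therefore came from those of its exon bases that lie outside the exons of every other gene, called countable here, and reads of either strand entered them.

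**Figure D1:**
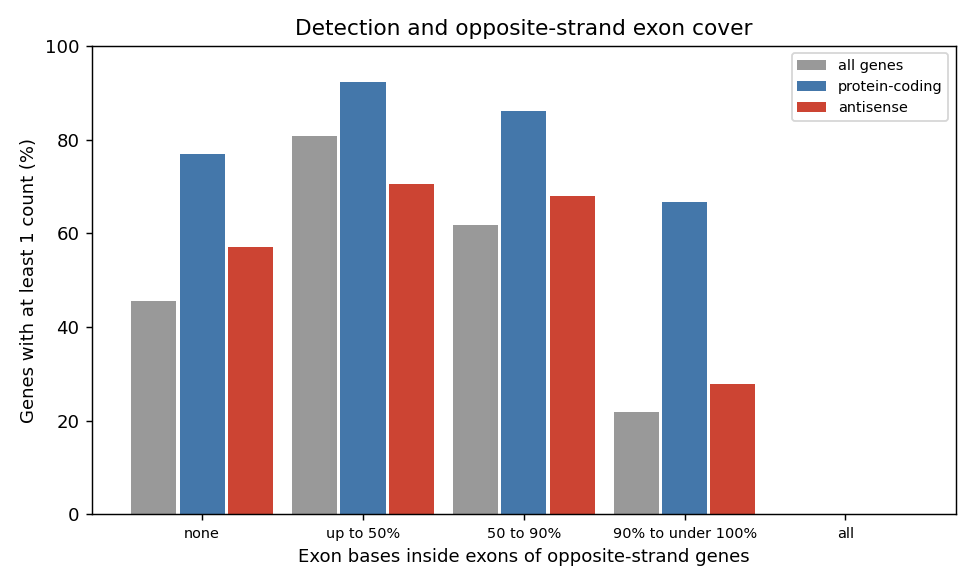
Share of genes with at least 1 count over the 4 libraries (percent, bars from 0) by how much of their exon sequence lies inside exons of opposite-strand genes, for all genes, protein-coding genes and genes of the biotype antisense. At complete cover the share is 0 for all 3 kinds, and with no cover it is 45.5%, 77.0% and 57.1%.

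ADIRF shows this rule in one pair. ADIRF encodes a small adipogenesis regulatory factor, and 0 of its exon bases are countable. It was listed at 0 in each library while its antisense RNA ADIRF-AS1 had 717 and 733 counts in vehicle and 924 and 1031 with Gomisin G, so the partner was not measured. Over the 285 members a median of 8.72% of exon bases were shared with exons of other genes and so not counted. A median of 20.4% were countable but lay inside the body of an opposite-strand gene, where unspliced RNA of that gene is counted as antisense RNA. The remaining median of 56.3% lay clear of any opposite-strand gene. In 58 members all countable bases lay inside opposite-strand gene bodies, and in 61 members none did.

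The members were sorted by position to the partner. A partner was found for 279 members, through a newer symbol for 2 of them, which gave 275 distinct protein-coding partners because 4 partners have 2 antisense RNAs each. Of the 285 members, 99 were divergent, which means that the 5′ ends of the opposite-strand genes lie within 1000 bases of each other and that the bodies overlap by less than 1000. Another 139 shared exon bases with the partner, 37 overlapped its body but not its exons, 4 were neighbours without overlap and 6 had no partner gene. The 6 were HOXB-AS2, HOXB-AS3, HOXA-AS2, HOXA-AS3 and HOXD-AS2, named for gene clusters, and KRTAP5-AS1, named for a keratin-associated protein family. Divergent members had a median of 90.2% of exon bases free of any opposite-strand gene, against 24.4% for those with exon overlap and 7.05% for those with body overlap only. These shares leave bodies of same-strand genes aside. All 3716 countable bases of the divergent THAP9-AS1, for example, lie inside such a body. The same holds for 11853 of the 11876 countable bases of OIP5-AS1 and 3064 of the 4178 of ADIRF-AS1. Unspliced RNA of those genes can be counted there. Current nomenclature gives 20 of the members the ending -DT, for divergent transcript, in place of -AS.

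Start regions are shown for the 1 member that passed the test, DLGAP1-AS1, and for 3 divergent members among those with the lowest p, LBX2-AS1, ARHGAP5-AS1 and MAPKAPK5-AS1. Each sequence is from RefSeq (GRCh38.p14), reads 5′ to 3′ on the strand of the antisense RNA and spans 250 bases before to 50 after a RefSeq start. Capitals mark matches on either strand to the GC box GGGCGG, the CCAAT box, the TATA element TATAAA, the AP-1 site TGANTCA or the TEAD site GGAATG. No 2 matches overlap here.
DLGAP1-AS1, chr18:3593864-3594163, plus strand: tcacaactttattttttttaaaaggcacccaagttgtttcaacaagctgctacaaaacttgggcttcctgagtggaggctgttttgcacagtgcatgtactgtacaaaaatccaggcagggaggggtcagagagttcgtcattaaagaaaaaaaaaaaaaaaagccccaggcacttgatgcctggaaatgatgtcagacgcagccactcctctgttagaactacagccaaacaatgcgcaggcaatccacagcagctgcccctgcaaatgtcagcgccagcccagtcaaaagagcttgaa
LBX2-AS1, chr2:74502343-74502642, plus strand: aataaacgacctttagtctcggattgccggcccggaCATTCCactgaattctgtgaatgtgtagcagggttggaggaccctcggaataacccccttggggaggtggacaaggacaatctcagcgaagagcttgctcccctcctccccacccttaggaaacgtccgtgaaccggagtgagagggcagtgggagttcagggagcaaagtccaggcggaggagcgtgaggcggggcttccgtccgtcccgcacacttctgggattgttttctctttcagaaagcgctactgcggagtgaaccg
ARHGAP5-AS1, chr14:32076650-32076949, minus strand: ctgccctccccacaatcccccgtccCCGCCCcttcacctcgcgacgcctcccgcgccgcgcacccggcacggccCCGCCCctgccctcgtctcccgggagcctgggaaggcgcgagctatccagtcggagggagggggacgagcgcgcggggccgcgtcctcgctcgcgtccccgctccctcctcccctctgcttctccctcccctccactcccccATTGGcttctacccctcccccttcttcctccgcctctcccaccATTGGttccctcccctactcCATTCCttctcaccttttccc
MAPKAPK5-AS1, chr12:111841881-111842180, minus strand: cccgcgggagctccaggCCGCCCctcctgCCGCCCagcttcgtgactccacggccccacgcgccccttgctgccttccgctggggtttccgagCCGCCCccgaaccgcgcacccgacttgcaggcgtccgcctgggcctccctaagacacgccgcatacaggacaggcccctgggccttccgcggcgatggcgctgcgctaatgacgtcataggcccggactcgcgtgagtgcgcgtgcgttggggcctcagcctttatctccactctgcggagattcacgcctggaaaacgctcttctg

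The 4 windows differ in composition. DLGAP1-AS1 starts in a stretch with 46.0% G and C, 4 CpG pairs and 0 motif matches, and this RefSeq start lies 382 bases inside the gene as GENCODE annotates it. LBX2-AS1 has 57.3% G and C, 18 CpG pairs and 1 TEAD match. ARHGAP5-AS1 has 71.7% and 28 pairs, with 2 GC boxes, 2 CCAAT boxes and 1 TEAD match, and its window ends 104 bases short of that of ARHGAP5. MAPKAPK5-AS1 has 69.3% and 34 pairs with 3 GC boxes, and 203 of the 300 bases of its window also belong to the window of MAPKAPK5 on the other strand, so by RefSeq both genes start within the same DNA, although GENCODE places the start of this antisense RNA 972 bases from the RefSeq start. RefSeq held windows for 228 of the 285 members, 277 windows in all. Of the 97 windows of divergent members 66.0% held a GC box and the median was 28 CpG pairs, against 49.4% and 20 in the 180 windows of other members and 45.0% and 14 in all 35116 windows of this length. The other motifs were no more frequent in divergent members than in all windows, at 21.6% and 34.6% for CCAAT, 8.25% and 11.5% for TATAAA, 3.09% and 7.71% for TGANTCA and 10.3% and 14.0% for GGAATG. A match is a description of letters, not a bound site.

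Antisense RNAs were scarce in SW1990 cells, apart from a few. The mean level over the 4 libraries ran from 0.829 to 228.3 CPM with a median of 2.81 CPM, and the median sum was 167 counts. Per kilobase of countable exon the median was 1.34 CPM for members and 6.37 CPM for their partners, and 219 of the 278 members whose partner has a value on this scale lay below it. The highest level per kilobase of countable exon was that of LRRC75A-AS1, now named SNHG29, at 70.8 CPM. HOXB-AS3 followed at 47.2 CPM, AFAP1-AS1 at 36.4 CPM and FGD5-AS1 at 33.5 CPM, whereas OIP5-AS1 reached 11.2 CPM and GABPB1-AS1 6.50 CPM.

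Among the 10 most abundant members AFAP1-AS1, a transcript known for high levels in pancreatic and other carcinomas, had 259.2 and 265.8 CPM in vehicle and 157.5 and 230.5 CPM with Gomisin G (chromosome 4, 7754090 to 7778928). Both treated libraries lay below both vehicle libraries, but the treated pair differed by more than the groups' nearest values, and the log2 change of -0.44 (SE 0.20) did not pass the test (adjusted p = 0.274). It was -0.19 without the first treated library and -0.74 without the second. Of its exon bases 91.3% are countable but lie inside opposite-strand gene bodies. The partner AFAP1 encodes an actin filament-associated protein. AFAP1 itself had 23.7 and 23.5 CPM in vehicle and 13.6 and 18.8 CPM with Gomisin G. The level of AFAP1-AS1 per kilobase of countable exon was 16.1 and 16.7 times that of AFAP1 in vehicle and 17.1 and 18.1 times with Gomisin G, so the ratio varied little while both levels did.

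LRRC75A-AS1, a host of small nucleolar RNAs, had 206.3 and 207.1 CPM in vehicle and 254.6 and 207.8 CPM with Gomisin G, with a log2 change of 0.16 (SE 0.17, adjusted p = 0.610). Only the first treated library stood apart, and the change was 0.0051 without it. Its partner LRRC75A had 38.4 and 34.6 CPM in vehicle against 21.0 and 29.4 CPM with treatment (log2 change -0.53, adjusted p = 0.198). FGD5-AS1 overlapped between groups, with 164 and 171 CPM in vehicle and 141 and 168 CPM with Gomisin G. OIP5-AS1, the RNA also called cyrano that pairs with the microRNA miR-7, had 125.1 and 129.7 CPM in vehicle and 137.0 and 139.2 CPM with Gomisin G, a log2 change of 0.12 (SE 0.15, adjusted p = 0.688). GABPB1-AS1, divergent from a gene for a subunit of the transcription factor GABP, had 100.3 and 97.6 CPM in vehicle and 104.3 and 115.4 CPM with Gomisin G, while GABPB1 had 18.0 and 14.1 CPM and then 12.3 and 11.0 CPM. Neither change passed the test, with adjusted p = 0.602 and 0.261.

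The other abundant members did not pass the test either. SLC9A3-AS1, antisense to a sodium-proton exchanger gene, had 66.3 and 59.5 CPM in vehicle and 89.4 and 97.1 CPM with Gomisin G (log2 change 0.57, SE 0.16, adjusted p = 0.105). PAX8-AS1, which lies across the gene of the transcription factor PAX8, had 68.1 and 72.8 CPM in vehicle and 80.1 and 93.2 CPM with Gomisin G (log2 change 0.30, adjusted p = 0.329). ADIRF-AS1 had 49.5 and 49.3 CPM in vehicle and 63.8 and 65.1 CPM with Gomisin G (log2 change 0.38, adjusted p = 0.214). In these 3 members the groups did not overlap. HOXB-AS3, from the HOXB cluster, had 73.0 and 82.8 CPM in vehicle and 33.9 and 63.2 CPM with Gomisin G (log2 change -0.68, SE 0.27, adjusted p = 0.215), with most of the difference in the first treated library. The change was -0.30 without that library and -1.20 without the second.

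**Figure D2:**
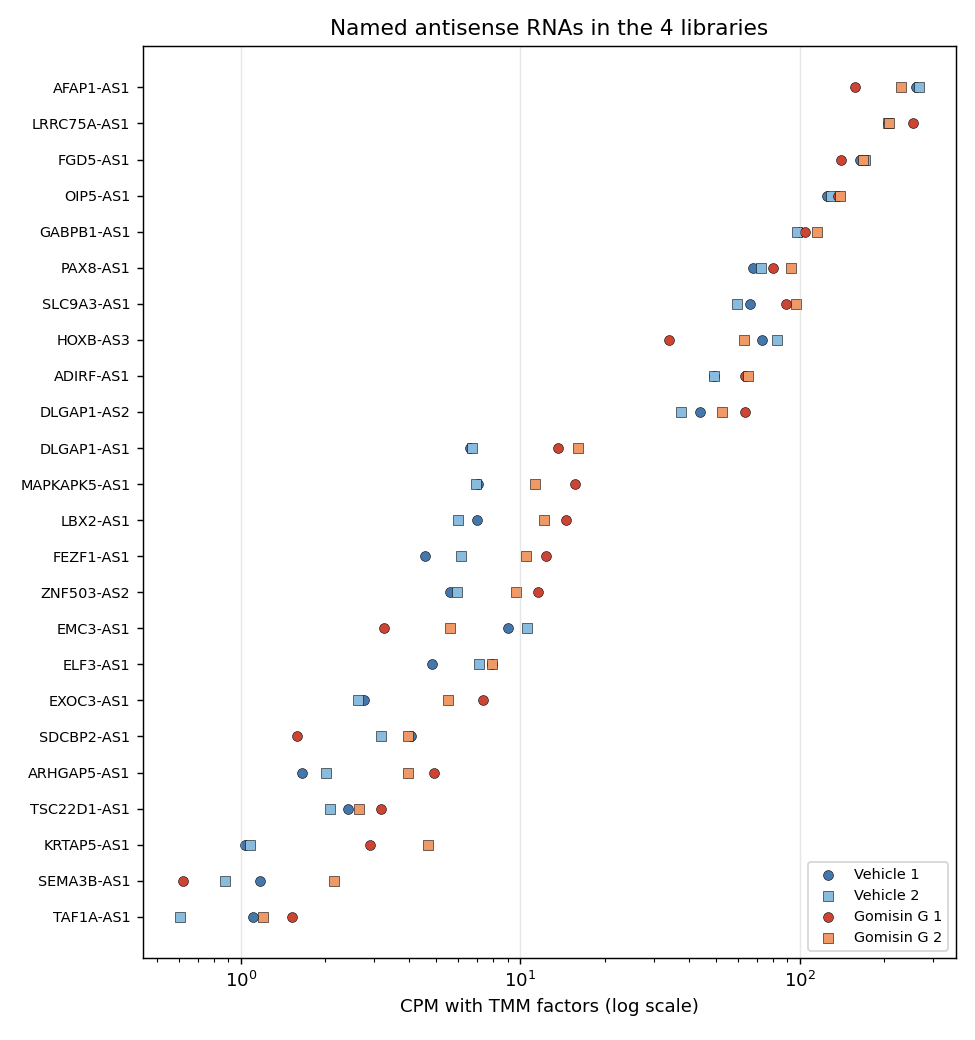
Level of each named antisense RNA (CPM with TMM factors, log axis) in the 4 libraries, blue for vehicle and red or orange for Gomisin G, circles for replicate 1 and squares for replicate 2, ordered by mean. DLGAP1-AS1 sits at 6.62 and 6.73 CPM in vehicle and 13.6 and 16.1 CPM with Gomisin G, and AFAP1-AS1 and HOXB-AS3 show the widest gap between the treated libraries among abundant members.

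Only 1 of the 285 members passed the test, and it rose. That share of 0.351% compares with 1.83% of all 15721 tested genes (287 called by edgeR's quasi-likelihood test at an adjusted p below 0.05), of which 0.922% were higher and 0.903% lower. All 285 members passed the expression filter. With sums of 50 to 389 counts, up to the upper quartile of members, 0 of 214 members and 37 of 2152 tested protein-coding genes were called. Above 389 counts 1 of 71 members was called, beside 217 of 9586 protein-coding genes up to 13640 counts. DESeq2 called 8 members, 6 higher and 2 lower, beside 890 of the 15721 genes, and limma voom called 1, beside 264 genes. At an unadjusted p below 0.05 there were 40 members higher with Gomisin G, against 10.9% of all tested genes, and 9 lower, against 9.62%. These make 14.0% and 3.16% of the members, and in either direction there were 49, or 17.2% against 20.6%.

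The called member was DLGAP1-AS1 (chromosome 18, 3593732 to 3598352, plus strand). It had 96 and 100 counts in vehicle and 197 and 255 with Gomisin G, or 6.62 and 6.73 CPM and then 13.6 and 16.1 CPM. The vehicle mean was 6.68 ± 0.0757 CPM and the Gomisin G mean 14.9 ± 1.76 CPM (SD, n = 2 each). The log2 change was 1.15 (SE 0.21, adjusted p = 0.0391). It lost its call without either vehicle library, with adjusted p = 0.221 without replicate 1 and 0.202 without replicate 2, while its log2 change stayed at 1.14 and 1.16. Without the first Gomisin G library the log2 change was 1.27, and without the second 1.03. A call in these fits is no support, because the lone treated sample is assumed to vary like the vehicle pair.

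DLGAP1-AS1 and DLGAP1-AS2 both lie wholly inside the body of DLGAP1, which encodes a scaffold protein of neuronal synapses, and share 0% of their exon bases with its exons. DLGAP1 itself was nearly silent, with 7 and 16 counts in vehicle and 6 and 15 with Gomisin G over its exons. DLGAP1-AS2 (chromosome 18, 3603000 to 3608336) had 43.7 and 37.4 CPM in vehicle and 63.8 and 52.6 CPM with Gomisin G, a log2 change of 0.52 (SE 0.18) that did not pass the test (adjusted p = 0.164). Both RNAs were higher in each treated library than in each vehicle library. Per kilobase of countable exon DLGAP1-AS2 averaged 15.6 CPM, DLGAP1-AS1 5.11 CPM and DLGAP1 0.0612 CPM.

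The 8 uncalled members with the lowest p included 5 divergent ones. LBX2-AS1, divergent from a homeobox gene, had 6.97 and 5.99 CPM in vehicle and 14.5 and 12.2 CPM with Gomisin G (log2 change 1.04, SE 0.22, adjusted p = 0.0591). LBX2 itself had 10.8 and 9.15 CPM and then 20.7 and 15.3 CPM (log2 change 0.85, adjusted p = 0.0946). In both genes the groups were separate, and the antisense level per kilobase stayed at 0.785 to 0.967 times that of the partner in all 4 libraries.

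In the other 4 divergent members the log2 change of the partner was likewise smaller than that of the antisense RNA, or negative. These members were picked by the low p of the antisense RNA, so this difference is partly given by that choice. EXOC3-AS1 starts 2 bases from the start of EXOC3, an exocyst subunit gene, and had 40 and 39 counts in vehicle and 106 and 87 with Gomisin G (log2 change 1.25, SE 0.28, adjusted p = 0.0687). EXOC3 had 98.4 and 95.7 CPM and then 103.9 and 103.1 CPM, and the antisense level per kilobase was 0.124 and 0.121 times the partner's in vehicle and 0.312 and 0.235 times with treatment. MAPKAPK5-AS1, whose partner encodes a stress-activated protein kinase, had 102 and 103 counts in vehicle and 227 and 178 with Gomisin G (log2 change 0.94, adjusted p = 0.0862), and the log2 change of MAPKAPK5 was 0.08. Per kilobase the antisense RNA had 1.12 and 1.07 times the level of the partner in vehicle and 2.29 and 1.70 times with treatment.

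ARHGAP5-AS1 had 24 and 30 counts in vehicle and 71 and 63 with Gomisin G (log2 change 1.27, SE 0.32, adjusted p = 0.0815). ARHGAP5 had 98.7 and 105.6 CPM in vehicle but 30.9 and 89.1 CPM with Gomisin G, so the partner's log2 change of -0.77 (adjusted p = 0.317) rested on the first treated library. It was -0.20 without that library and -1.72 without the other treated library. ZNF503-AS2, divergent from a zinc finger gene, had 81 and 88 counts in vehicle and 168 and 153 with Gomisin G (log2 change 0.88, adjusted p = 0.0873), and ZNF503 had a log2 change of 0.32 (adjusted p = 0.308).

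Of the 3 remaining members of this kind, 2 lay higher and 1 lower. FEZF1-AS1, antisense to a zinc finger gene of the developing forebrain, had 66 and 91 counts in vehicle and 178 and 166 with Gomisin G (log2 change 1.09, SE 0.24, adjusted p = 0.0665). FEZF1 had 6 and 10 counts and then 19 and 18, a log2 change of 1.15 (adjusted p = 0.259), and all countable exon bases of FEZF1-AS1 lie inside opposite-strand gene bodies. KRTAP5-AS1 had 15 and 16 counts in vehicle and 42 and 74 with Gomisin G, the highest log2 change among the members at 1.84 (SE 0.40, adjusted p = 0.0606). It is named for a family of related genes, and whether reads that match several of them were counted is not stated. EMC3-AS1, annotated as a transcribed pseudogene across the gene of an ER membrane complex subunit, had 131 and 157 counts in vehicle and 47 and 89 with Gomisin G (log2 change -1.14, SE 0.29, adjusted p = 0.0907), while EMC3 had a log2 change of 0.22. DESeq2 called LBX2-AS1, FEZF1-AS1, KRTAP5-AS1, EXOC3-AS1, MAPKAPK5-AS1 and EMC3-AS1. Besides DLGAP1-AS1 it also called CYP1B1-AS1, which was lower (DESeq2 log2 change -1.04, adjusted p = 0.0354) and was named after its value was seen.

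Positive log2 changes outnumbered negative ones among the members. The log2 change was positive in 186 of 285 members, or 65.3%, against 50.7% of all tested genes, with a median of 0.19 against 0.0092. Both Gomisin G libraries lay above both vehicle libraries in 110 members, or 38.6% against 27.0% of tested genes, and below them in 48, or 16.8% against 27.3%. The median was 0.16 in the first treated library and 0.20 in the second. The same held for coding genes of low count: among the 2152 tested protein-coding genes with sums of 50 to 389, a range that ends at the upper quartile of members, the median was 0.19 and 63.0% were positive. The 214 members in that range had a median of 0.18 and 63.1% positive. Both treated libraries lay above both vehicle libraries in 788 of these coding genes and 71 of these members, and below them in 372 and 36. Above 389 counts the 71 members had a median of 0.27 with 71.8% positive, and the 9586 protein-coding genes up to 13640 counts a median of -0.034 with 45.8% positive. The part of count level in these shares was not tested. The other 731 tested genes of the biotype antisense had a median of 0.13, with 59.4% positive.

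Medians differed by position to the partner. Divergent members had a median of 0.38, with 74 of 99 positive, or 74.7% against 50.7% of all tested genes. Both treated libraries lay above both vehicle libraries in 47 of the 99 and below them in 11, where the shares of all tested genes were 27.0% and 27.3%. Most divergent members had low counts. In the 76 with up to 389 counts, 34 lay above and 9 below, beside 788 and 372 of the 2152 protein-coding genes of that range. Members with exon overlap had a median of 0.16 (87 of 139 positive), and those with body overlap only a median of 0.035 (19 of 37 positive). In divergent members the median was 0.36 in the first treated library and 0.33 in the second, and it was 0.38 in the 76 with up to 389 counts and 0.36 in the 23 above. For exon overlap these medians were 0.16 (103 members) and 0.17 (36 members). For body overlap they were -0.100 (28 members) and 0.39 (9 members, 6 of them positive), so above 389 counts body overlap was not the lowest position. The 98 tested partners of divergent members had a median of -0.043, with 44 positive. The 29 divergent members that share 0 exon bases with any other gene had a median of 0.42. These differences between positions are a description and carry no test.

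Medians also differed by how much countable sequence lies inside opposite-strand genes. With none inside, the median was 0.30 over 61 members. It was 0.26 over 104 members with up to 50% inside, 0.16 over 62 with more than that, and -0.083 over the 58 with all of it inside. DLGAP1-AS1 belongs to the last group. Of the 61 members with none inside 45 were divergent, and of the 58 with all of it inside 3 were. This grouping thus overlaps with position, and the part of each, or of count level, was not tested.

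**Figure D3:**
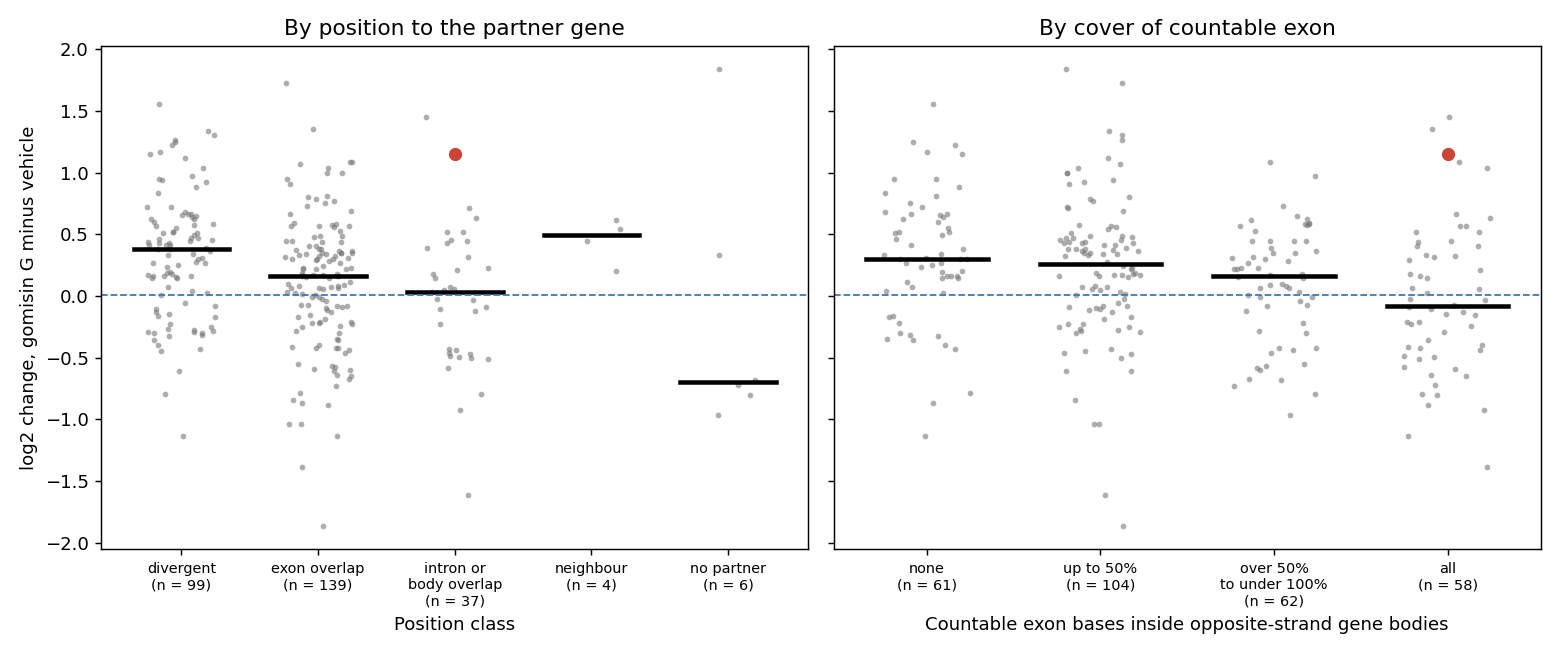
Log2 change (Gomisin G minus vehicle) of each of the 285 members by position to the partner (left) and by the share of countable exon bases inside opposite-strand gene bodies (right). Grey points are members that did not pass the test, the red point is DLGAP1-AS1, black bars are medians and the dashed line is the median of all tested genes at 0.0092. Medians run from 0.38 for divergent members to 0.035 for body overlap, and from 0.30 with no cover to -0.083 with complete cover.

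The 6 members without a partner gene had a median of -0.70. Of the 5 from HOX clusters, which carry the homeobox genes of body patterning, 4 had a negative log2 change. Besides HOXB-AS3 they were named after their values were seen. HOXA-AS3 had 4.28 and 5.32 CPM in vehicle and 1.31 and 3.53 CPM with Gomisin G, HOXA-AS2 had 3.93 and 6.33 CPM and then 2.07 and 4.10 CPM, and HOXB-AS2 had 9.31 and 11.6 CPM and then 2.28 and 9.59 CPM. In each of these the first treated library was the lowest of the 4, and the adjusted p-values were 0.247, 0.329 and 0.400. HOXD-AS2 had a log2 change of 0.33 (adjusted p = 0.723).

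Partner genes changed about as often as other genes. Of the 263 tested partners 5 passed the test, 4 higher and 1 lower, or 1.90% against 1.83% of all tested genes. Their median log2 change was -0.014, and 48.7% were positive. Of 267 tested pairs, 88 had both changes positive, 50 both negative, 88 the antisense RNA positive and the partner negative, and 41 the reverse. Across these pairs Pearson's r between the changes was 0.17, and it was 0.11 over 98 divergent, 0.27 over 130 exon-overlap and 0.11 over 35 body-overlap pairs. Both values of a pair come from the same libraries and genes are not independent, so r is only a description.

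None of the 5 antisense RNAs whose partner was called passed the test itself, where 1 of all 285 members did. These pairs were chosen by the call of the partner, so a smaller change of the antisense RNA is partly given by that choice. ELF3, an epithelial transcription factor gene, rose from 21.3 and 17.2 CPM to 63.0 and 65.3 CPM (log2 change 1.73, SE 0.18, adjusted p = 0.00784). ELF3-AS1 had 4.83 and 7.13 CPM in vehicle and 7.94 and 7.89 CPM with Gomisin G (log2 change 0.40, adjusted p = 0.408). That change was 0.15 without vehicle replicate 1 and 0.71 without vehicle replicate 2. The antisense level per kilobase was 0.311 and 0.569 times that of ELF3 in vehicle and 0.173 and 0.166 times with Gomisin G, with no overlap between groups.

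TSC22D1, a transcriptional regulator gene inducible by TGF-beta, rose from 111.4 and 118.7 CPM to 315.1 and 281.3 CPM (log2 change 1.37, SE 0.16, adjusted p = 0.0116). TSC22D1-AS1 had 35 and 31 counts in vehicle and 46 and 42 with Gomisin G (log2 change 0.37, adjusted p = 0.535). SEMA3B, which encodes a secreted semaphorin, rose from 88.9 and 83.0 CPM to 184.7 and 183.6 CPM (log2 change 1.10, adjusted p = 0.0223). SEMA3B-AS1, divergent from it, had 17 and 13 counts in vehicle and 9 and 34 with Gomisin G, so the treated libraries lay on either side of the vehicle pair.

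SDCBP2, a syntenin family gene, rose from 16 and 15 counts to 63 and 57 (log2 change 1.90, SE 0.35, adjusted p = 0.0391), whereas SDCBP2-AS1 had 59 and 47 counts in vehicle and 23 and 63 with Gomisin G (log2 change -0.36, adjusted p = 0.665). TAF1A, a subunit gene of the RNA polymerase I factor SL1, fell from 16.2 and 15.1 CPM to 7.05 and 7.45 CPM (log2 change -1.11, SE 0.20, adjusted p = 0.0386). TAF1A-AS1, divergent from it, had 16 and 9 counts in vehicle and 22 and 19 with Gomisin G (log2 change 0.66, adjusted p = 0.466), and the change was 1.15 without vehicle replicate 1 and 0.29 without replicate 2. The calls of SDCBP2, SEMA3B and TAF1A were lost without either vehicle library (adjusted p of 0.0998 to 0.222), and that of TSC22D1 without vehicle replicate 1 (0.0673), with log2 changes that stayed within 1.05 to 2.04 for the 3 that rose and within -1.16 to -1.07 for TAF1A. SDCBP2 also missed the threshold with limma voom (0.0555).

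**Figure D4:**
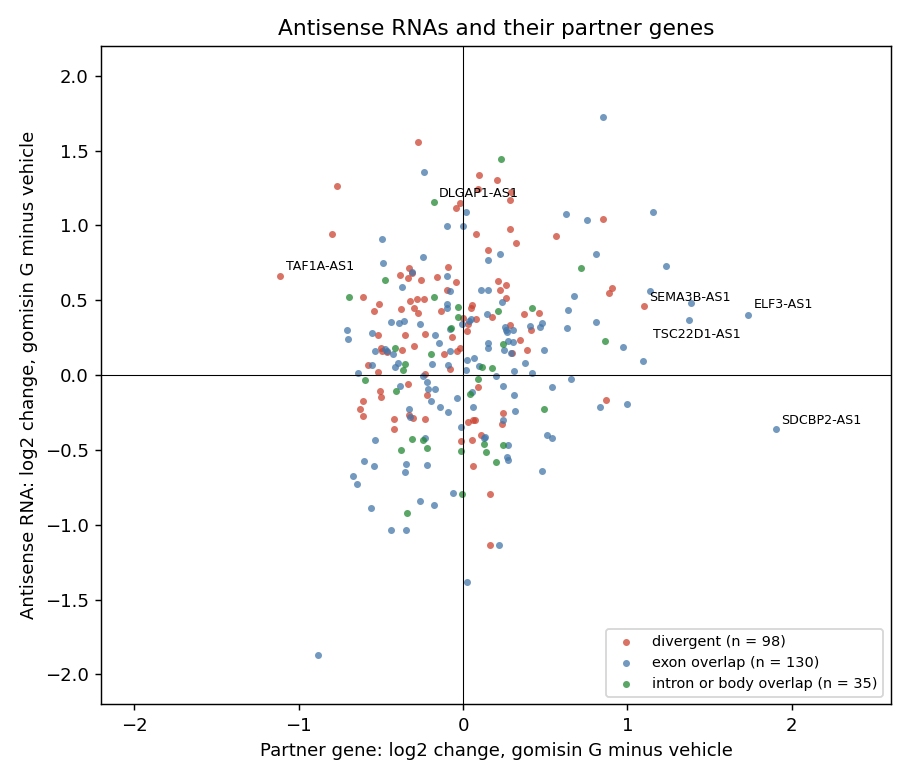
Log2 change (Gomisin G minus vehicle) of each antisense RNA (vertical axis) against that of its partner gene (horizontal axis), coloured by position. The 5 pairs with a called partner and DLGAP1-AS1 are labelled. The 4 neighbour pairs are not drawn. Labelled antisense RNAs with a called partner lie between -0.36 and 0.66 while their partners, by whose call these pairs were chosen, run from -1.11 to 1.90.

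No antisense RNA of a listed YAP or Hippo gene was a member. The list held WWC1, WWC2, WWC3, LATS1, LATS2, YAP1, WWTR1, TEAD1, TEAD2, TEAD3, TEAD4, AMOTL1, AMOTL2, PTPN14, NF2, SAV1, TAOK1, CCN1 and CCN2. Other genes of the pathway were not looked up. WWC2-AS2 had 24 counts over the 4 libraries, WWTR1-AS1 had 5, and LATS2-AS1, WWC2-AS1 and WWC3-AS1 had 2 each, so no change could be measured at this depth.

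Genes for nuclear RNA decay and termination were read from a list of 34, all tested: the exosome, its NEXT and PAXT adaptors, the cap-binding complex and termination factors. Of these edgeR called 0, as did limma voom, and DESeq2 called 1. At an unadjusted p below 0.05 there were 6 lower and 0 higher, or 17.6% against 9.62% of tested genes that were lower. WDR82, part of a complex that restricts transcription outside genes, averaged 228.7 CPM in vehicle against 141.8 CPM in treated libraries (log2 change -0.69, SE 0.18, adjusted p = 0.0924). The exosome core gene EXOSC9 had 61.4 and 38.6 CPM (-0.67, adjusted p = 0.116) and the helicase gene MTREX 112.0 and 80.8 CPM (-0.47, adjusted p = 0.151). These genes had the lowest p of the list. The log2 change was positive in 10 of the 34, among them the exosome genes EXOSC4 (0.42) and EXOSC6 (0.29). In 19 of the 34 both treated libraries lay below both vehicle libraries, or 55.9% against 27.3%, and in 2 above them, or 5.88% against 27.0%. Of the 9586 protein-coding genes with sums above 389 and up to 13640 counts, 3144 lay below and 2396 above. Whether these levels bear on the antisense RNAs was not tested.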

How the data were processed

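Raw counts per gene were deposited by the authors for 4 RNA-seq libraries. Per the submitters' processing notes they were made with fastp, HISAT2 and featureCounts on hg38, and versions, strand setting and the rule for reads matching several places are not given in the sources used here. Per the labels' protocols, ribosomal RNA was removed before library construction. The whole-series table and the sample tables differed in 0 counts. Gene length, a value of another kind, is per the file headers and equals merged GENCODE 29 exons.

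Libraries of 14580848 to 15245770 counts were fitted over the whole table with edgeR 4.0.16 in R 4.3.3 (default filter by group, TMM factors, robust quasi-likelihood F test, treatment alone, 2 residual degrees of freedom), with Benjamini-Hochberg adjustment over 15721 genes. The SE is the log2 change divided by the root of F. On simulated counts for these 15721 genes the test called 8% of genes changed 1.5-fold, 60% at 2-fold, 92% at 4-fold and 98% at 8-fold, with 5 false calls, and 0 where nothing changed. Members and lists were chosen with earlier results of these data known. Named members are those called, those whose partner is called, the 10 most abundant and the 8 uncalled with the lowest p. Any of the listed YAP or Hippo genes would have been added. Per-library log2 values use CPM plus 0.1. Alternatives were RLE factors, other filters, DESeq2 1.42.0, limma 3.58.1 voom, the replicate number as a block, leaving out each library and a sum of 100.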

Additional observations from a re-analysis of the deposited data

How the results depend on the processing

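Over all genes DESeq2 called 890 and the fit with the replicate block 2885, and leaving out 1 library gave 135 to 6322. Of the 285 members DESeq2 called 8, beside those 890 of 15721 genes. The fit with the replicate block called 35 members (24 higher, 11 lower), beside those 2885 genes. Dropping the first vehicle library left 0 calls and dropping the second left 1, RARA-AS1, named after its value was seen. Dropping the first treated library gave 21 calls and dropping the second gave 72. Partner calls were 16 and 55, and 1 to 136. Calls in the decay list were 1 and 5, and 0 to 18. With RLE factors, no filter, at least 50 counts in 2 samples, limma voom or a sum of 100, DLGAP1-AS1 was the 1 member called. The labels share only replicate numbers: deviations of same-numbered libraries correlated at 0.30, with 2 libraries a group.

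The median of members was 0.27 with at least 50 counts in 2 samples, where 136 were tested, and 0.17 to 0.24 with 1 library left out; that of divergent members was 0.43, and 0.29 to 0.37. The change of SLC9A3 was -0.00069 with limma voom. With 1 library left out, changes reached both signs for FGD5-AS1 (-0.25 to 0.0066), SDCBP2-AS1 (-1.18 to 0.14), SEMA3B-AS1 (-0.71 to 1.06), FGD5 (-0.53 to 0.57), OIP5 (-0.16 to 0.26), SLC9A3 (-0.80 to 0.70) and DLGAP1 (-0.90 to 0.50), and the cause was not tested. Of 434 values for 44 named genes, 356 kept direction and side of the threshold, 56 gained a call, 10 lost one and 12 changed sign. With at least 50 counts in 2 samples 1 of 136 members was called, beside 320 of 12116 tested genes. The median sum of members was 167 counts over 4 libraries. Their calls are given by range of count above, and whether depth limits them was not tested. In fits with 1 library left out, the lone sample is assumed to vary like the other group.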
